A study of Mus musculus with 6 samples.

Results

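The 9 genes described here make, carry or sense retinoic acid: Adh7, Aldh1a1, Aldh1a2, Aldh1a3, Crabp2, Rara, Rarb, Rarg and Rxra. They were chosen by name out of 21938 protein-coding genes of the GENCODE annotation of GRCm38. The choice rule uses no measured value, but it was made with earlier results of these data known. What was measured is chromatin accessibility, by droplet single-cell ATAC-seq, in which a transposase cuts open DNA and each sequenced fragment gives 2 cut sites. Cut sites were counted within 1 kb of each transcription start, in 500 bp tiles over each gene and 30 kb on both sides, and over each gene with 2 kb upstream. Starts of a gene within 500 bp of each other were joined, which gave the 9 genes 31 start windows, of which 30 passed the filter on low counts. The start window that failed, the distal start of Rarb, held 0.0847 to 0.434 CPM, that is, cut sites per 1000000 of a library's scaled total. No transcript or protein was measured.

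The sort was for horizontal basal cells, the reserve stem cells of the olfactory epithelium, labelled with YFP in mice of genotype Krt5-CreERT2; Rosa26-LSL-YFP/YFP. Cells were sorted from dissociated dorsal olfactory epithelium as YFP-positive, propidium iodide-negative cells. All 6 libraries carry these alleles, and the label marks cells in which the Krt5 promoter drove the recombinase, together with their descendants. The 3 uninjured libraries, called U1, U2 and U3, came from control mice, and the 3 injured libraries, I1, I2 and I3, from mice 24 hours after intraperitoneal methimazole, a drug that destroys much of the olfactory epithelium. Replicate 1 of each group was 8 weeks old, replicate 2 was 6 weeks old and replicate 3 was 6 to 7 weeks old. The libraries kept 454, 889 and 629 uninjured and 1338, 420 and 746 injured barcodes with at least 2000 fragments, and 14825320 to 44875242 cut sites each. Of these barcodes, 333, 594 and 324 uninjured and 998, 254 and 170 injured fell in clusters of cells that resemble horizontal basal cells. The libraries are thus mixtures, in unequal shares.

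Several properties of the libraries touch the values below. Open tiles held 77.7%, 73.9% and 76.1% of the cut sites in U1 to U3 and 70.8%, 65.1% and 72.7% in I1 to I3, so the share was lower in every injured library. Libraries shared 60 barcodes over 15 pairs of libraries, 34 of them between U3 and I3, and 41 were repeated copies of a cell; without those copies the members' calls numbered as many as with them. The summed gene body accessibility of 9 horizontal basal cell markers was 748 to 888 CPM in the uninjured and 667 to 852 in the injured libraries. That of 7 olfactory sensory neuron markers was 151 to 213 and 128 to 271, and that of 7 sustentacular markers was 198 to 245 and 198 to 286. Of all 10 marker lists, 3 did not overlap between the groups. Of all single start windows tested, 27.6% did not overlap, and no such share was computed for gene bodies. Immune markers summed to 49.5 to 60.9 CPM uninjured and 63.1 to 70.5 injured, microvillar markers to 123 to 139 and 144 to 153, and Bowman's gland markers to 93.9 to 105.5 and 76 to 85.2. Among single markers, Csf1r (immune), Cdh5 (endothelial) and Col1a2 (fibroblast) were called higher and Icam1 (horizontal basal cell), Aqp5 (Bowman's gland) and Muc2 (sustentacular) lower in the gene body test. That test called 3.58% of all gene bodies higher and 2.78% lower. No marker of these lists was at 0 in any library. The part of these cell mixtures in the members' values was not tested except where values from basal cell clusters alone are given.

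Retinol taken up by a cell is oxidised to retinaldehyde by alcohol and short-chain dehydrogenases, among them Adh7. Retinaldehyde dehydrogenases, encoded by Aldh1a1, Aldh1a2 and Aldh1a3, turn it into retinoic acid, which Crabp2 carries to the nucleus. There a retinoic acid receptor, Rara, Rarb or Rarg, paired with a retinoid X receptor such as Rxra, binds direct repeats of a short motif and switches nearby genes on when the ligand is bound. Retinoic acid is known to act in the development of the olfactory epithelium and in the differentiation of many epithelia.

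Accessibility at 1 place among the members' starts, the overlapping windows of Rara starts 2 and 3, fell after injury, and no start window of another member passed the test. Values are in CPM, scaled by the TMM factors of edgeR, and a change is called where the edgeR quasi-likelihood test, adjusted over all 38689 start windows tested, gives a p under 0.05. Of the members' 30 windows tested, 0 were called higher and 2 lower, where 2.77% of all windows were called higher and 2.98% lower. DESeq2 gave the same 0 and 2, and 9 windows had an unadjusted p under 0.05, as had 22% of all windows. The uninjured and injured libraries did not overlap in 11 of the 30 windows, 6 higher and 5 lower after injury, against 27.6% of all windows. The median log2 change was 0.0076 over the members' windows and 0.035 over all windows.

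**Figure D1:**
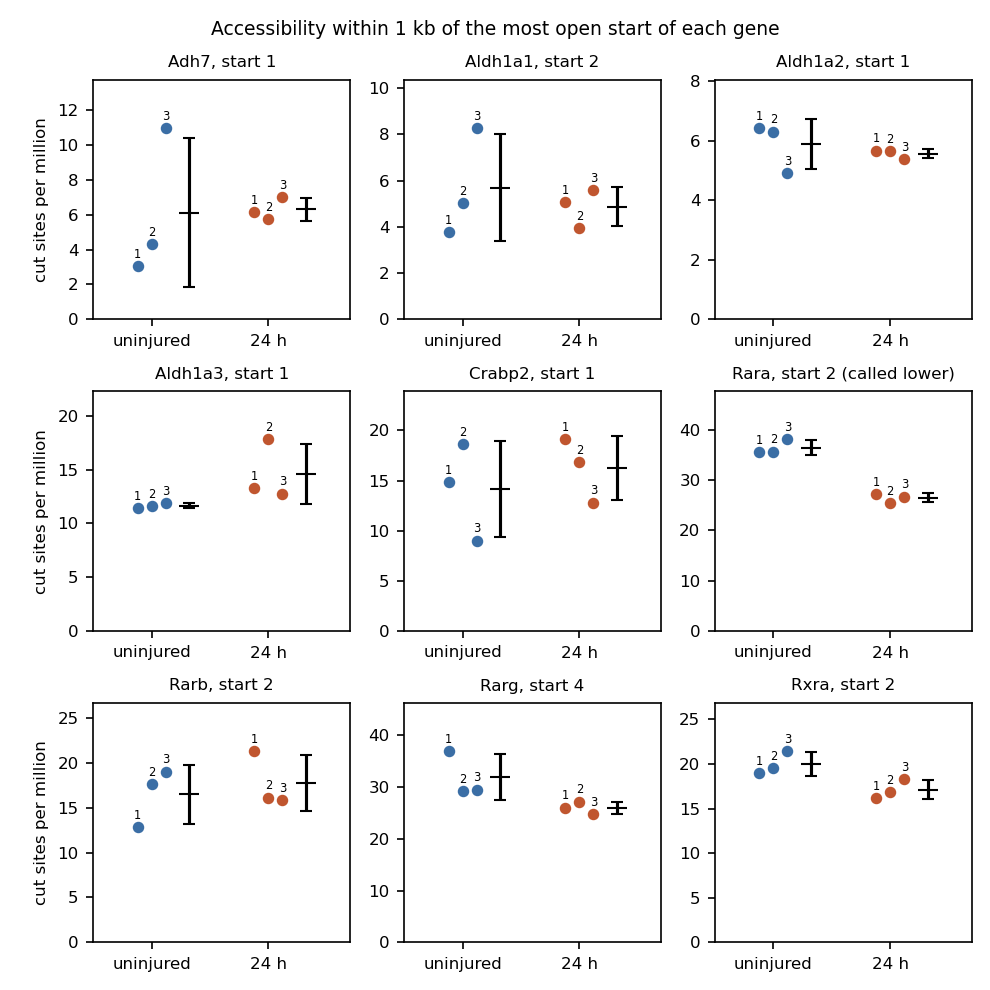
CPM of cut sites within 1 kb of a start of the 9 genes, for the most open start of each; blue points are the 3 uninjured and orange the 3 injured libraries, numbered by replicate, beside mean and SD. Of the windows drawn only that of Rara fell by the test, while Adh7, Aldh1a1 and Crabp2 show U3 apart from U1 and U2.

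Rara encodes retinoic acid receptor alpha, the most widely expressed of these receptors. Its start 2, at position 98937698 of chromosome 11 and used by coding transcripts Rara-201 and Rara-204, had 35.5, 35.7 and 38.1 CPM in U1 to U3 and 27.2, 25.5 and 26.7 in I1 to I3. Every injured library lay below every uninjured one. Whether fewer cells were open there or each cell was less open cannot be told apart in summed libraries. The means were 36.4 ± 1.45 and 26.5 ± 0.887 (SD, n = 3 each), a log2 change of -0.46 ± 0.0793 (SE) with an edgeR adjusted p of 0.00584. Start 3, at 98938328 and used by the noncoding transcript Rara-205, lies close enough that its window overlaps that of start 2, so the pair is not independent. It had 32.4, 32.5 and 34.8 uninjured and 24.3, 21.6 and 23.5 injured, a log2 change of -0.52 ± 0.0853 and an edgeR adjusted p of 0.00466. Leaving out each library in turn gave adjusted p-values of 0.00509 to 0.0418 at start 2 and 0.00333 to 0.0377 at start 3. With windows of 500 bp each side, start 2 missed the threshold, with an edgeR adjusted p of 0.0524, and start 3 kept its call, with 0.00503.

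The fall was strongest in the tile chr11:98938001-98938500, an exonic tile centred 78 bp before start 3. It had 14.7, 14.1 and 14.6 CPM in U1 to U3 and 8.22, 7.72 and 7.83 in I1 to I3. All injured values lay far below the uninjured ones, a log2 change of -0.86 ± 0.129 with an edgeR adjusted p of 0.0048 over all 397121 open tiles tested. Not all Rara starts moved this way. Start 5, at 98960412, had 14.3, 15.9 and 15.7 uninjured and 17.0, 16.6 and 17.7 injured, without overlap but with an edgeR adjusted p of 0.440 and a log2 change of 0.15. Start 1 had 2.63 to 2.85 and 1.46 to 2.88, with adjusted p = 0.606, and start 4 had 3.47 to 4.56 and 3.34 to 4.43, with adjusted p = 0.815.

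The sequence before start 2 is shown because it lies in the start window that fell and holds the promoter of the coding transcripts Rara-201 and Rara-204. The called tile lies downstream of it, and the Rara tile between them, chr11:98937501-98938000, was not called, at 14.9, 14.2 and 15.3 CPM uninjured and 12.35, 9.91 and 10.1 injured (edgeR adjusted p = 0.0751). The sequence spans chr11:98937446-98937695 on the plus strand, which is the strand of the gene, taken from RefSeq (GRCm38.p6), and capitals mark GC boxes (GGGCGG or CCGCCC, either strand).
Rara promoter: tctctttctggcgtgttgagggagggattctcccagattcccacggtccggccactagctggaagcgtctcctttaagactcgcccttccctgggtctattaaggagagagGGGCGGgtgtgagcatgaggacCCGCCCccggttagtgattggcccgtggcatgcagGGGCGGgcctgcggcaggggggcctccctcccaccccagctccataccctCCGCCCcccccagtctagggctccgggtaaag
It holds 4 GC boxes. Of 32851 RefSeq promoters, 32.7% hold at least 1, and a share for 4 or more was not counted. The Rara promoters at chr11:98939461-98939710 and chr11:98964622-98964871 hold 0 and 1. The window of start 2 was 64.5% G and C, against a median of 53.1% over all windows.

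By a rule that took the windows most like each called member window across the 6 libraries, Rara start 2 was followed most closely by Ccdc61, Rnf2 and Isg20l2, with Pearson's r of 0.9974, 0.9962 and 0.9961 on log2(CPM + 1). For start 3 they were Isg20l2 and Ccdc61, both with r of 0.9992, and Hoxa7 with 0.9974. Pearson's r takes no account of the size of a change. The log2 changes of Ccdc61, Rnf2, Isg20l2 and Hoxa7 were -0.19, -0.29, -0.25 and -0.51. Their edgeR adjusted p-values were 0.154, 0.0435, 0.124 and 0.167, so of these only Rnf2 was called. These r values describe 6 libraries in 2 groups, and 378 of the 17018 windows compared had r above 0.95 with start 2.

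Rarg encodes the receptor best known from skin and other stratified epithelia. Its start 4, at 102246500 of chromosome 15, was the most accessible of its 6 starts and had 37.0, 29.2 and 29.5 CPM in U1 to U3 and 26.0, 27.2 and 24.7 in I1 to I3. The groups did not overlap, but the log2 change of -0.29 ± 0.100 missed the threshold, with an edgeR adjusted p of 0.106. With replicate number as a block, a fit that called 11.6% of all windows, the edgeR adjusted p was 0.0404. Start 1 had 23.6 to 26.7 uninjured and 22.3 to 25.5 injured, with adjusted p = 0.696. Minor starts lay on the other side: start 6 had 7.41 to 8.92 and 9.29 to 12.3, with adjusted p = 0.125, and start 3 had 3.34 to 3.40 and 3.81 to 5.66, with adjusted p = 0.207. In both of these the groups did not overlap.

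Rxra encodes the shared partner of the receptors. Its start 1, at 27676440 of chromosome 2, had 17.4, 18.7 and 19.2 CPM uninjured and 14.6, 14.7 and 15.8 injured, a log2 change of -0.30 ± 0.106 with an edgeR adjusted p of 0.113. Start 2, whose window overlaps that of start 1, had 19.0, 19.5 and 21.5 and then 16.2, 16.9 and 18.3, with adjusted p = 0.218. In both windows every injured library lay below every uninjured one without passing the test. Start 5 had 4.13 to 5.45 and 4.24 to 6.31, and starts 3 and 4 had under 1 CPM in every library.

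Rarb encodes a receptor whose promoter is a textbook target of the receptors themselves, through a direct repeat just by its start. Start 2, at 16575827 of chromosome 14, had 12.8, 17.6 and 19.0 CPM in U1 to U3 and 21.3, 16.1 and 15.8 in I1 to I3. The groups overlapped, and the log2 change was 0.10 ± 0.155 with an edgeR adjusted p of 0.765. The perfect repeats of AGGTCA spaced by 5 or by 2 bases, on either strand, were found in 0 of the 31 member windows and in 0.0853% and 0.124% of all windows tested. A looser form, GTTCA repeated with 6 bases between, was in 2 of the 31 member windows and in 0.313% of all. They are shown, 5′ to 3′ on the strand of each gene, because they are the only matches of this kind in the members' windows, and capitals mark the match.
Rarb start 2, chr14:16575506-16575535, minus strand: gggaaggGTTCACCGAAAGTTCActcgcat
Rara start 5, chr11:98959969-98960064, plus strand: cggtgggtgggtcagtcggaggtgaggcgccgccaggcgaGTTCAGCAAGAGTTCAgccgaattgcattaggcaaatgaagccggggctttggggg
The Rarb match lies 307 bp inside start 2, which is placed at the 5′-most of the joined starts of 5 transcripts. It also lies within the RefSeq promoter sequence of Rarb, chr14:16575427-16575726. The Rara match lies 396 bp before start 5. Neither window passed the test after injury. The same search found no such repeat in the Rara windows that fell.

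Of the enzymes, Aldh1a3 had values that lay higher after injury without passing the test. Its start 1, at 66427517 of chromosome 7, had 11.5, 11.6 and 11.9 CPM in U1 to U3 and 13.3, 17.8 and 12.8 in I1 to I3. The groups did not overlap, and I2 was the highest, with a log2 change of 0.32 ± 0.147 and an edgeR adjusted p of 0.218. Start 2 had 6.25, 7.35 and 7.12 and then 7.70, 11.6 and 8.58, with adjusted p = 0.237. Over the whole gene, Aldh1a3 had 26.2, 26.1 and 25.0 uninjured and 28.1, 37.7 and 34.2 injured, a log2 change of 0.37 ± 0.120 and an edgeR adjusted p of 0.0862. This was the lowest of the 9 gene body p-values. For gene bodies 0 of the 9 members were called by edgeR or by DESeq2, and 1 had an unadjusted p under 0.05 (29.3% of all gene bodies), where 3.58% of all gene bodies were called higher and 2.78% lower.

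Aldh1a2, the enzyme that supplies retinoic acid in much of the early embryo, had 6.44, 6.31 and 4.91 uninjured and 5.67, 5.66 and 5.39 injured at its start, with adjusted p = 0.880. Aldh1a1 was more accessible at start 2, at 20601961 of chromosome 19, with 3.78, 5.04 and 8.28 uninjured and 5.08, 3.96 and 5.59 injured. The groups overlapped (edgeR adjusted p = 0.693), and start 1 had 0.248 to 0.792 over the 6 libraries.

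Adh7, an alcohol dehydrogenase of epithelia that can oxidise retinol, had 3.03, 4.31 and 10.96 CPM in U1 to U3 at start 1, at 138217760 of chromosome 3. In I1 to I3 it had 6.14, 5.75 and 7.00, so the injured libraries lay inside the uninjured range, which U3 set. The log2 change was 0.03 ± 0.389 with an edgeR adjusted p of 0.981. Crabp2, the carrier that hands retinoic acid to its receptors, had 14.9, 18.6 and 9.01 uninjured and 19.1, 16.8 and 12.8 injured at start 1, at 87948666. Here too the groups overlapped, with U3 the lowest, a log2 change of 0.20 ± 0.248 and an edgeR adjusted p of 0.702.

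**Figure D2:**
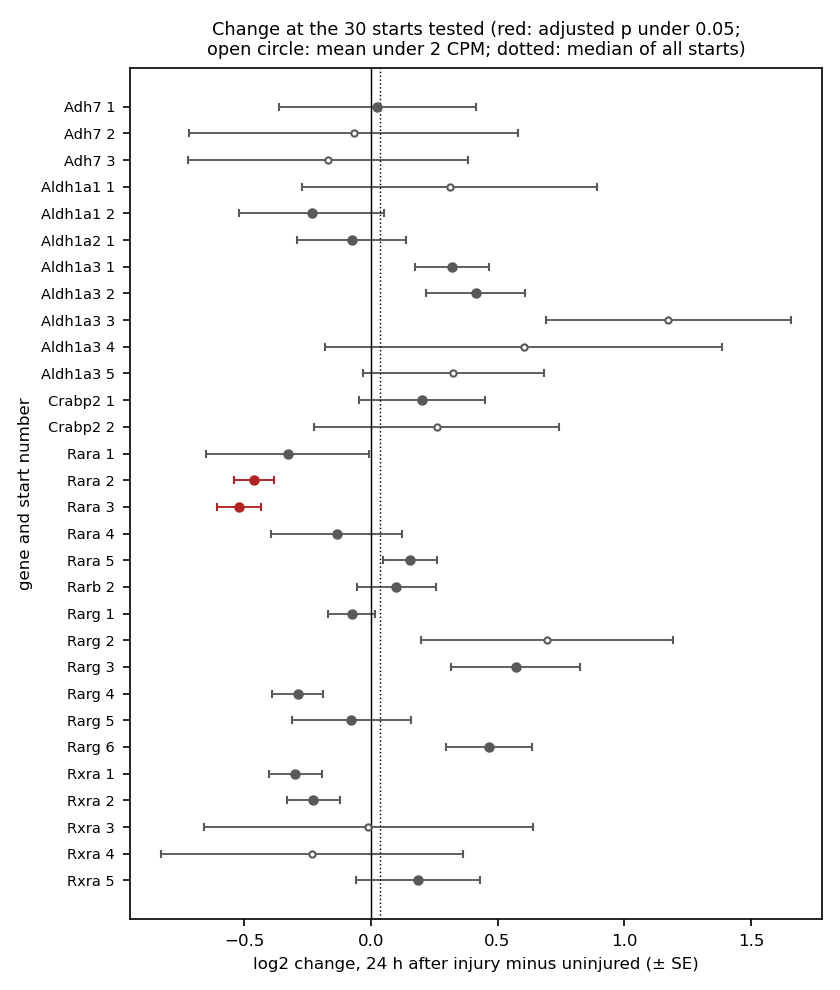
The log2 change after injury (injured minus uninjured) for the members' 30 windows tested, with bars of 1 standard error on each side, open circles for means under 2 CPM and a dotted line at the median of all windows. Only Rara starts 2 and 3, in red, have an edgeR adjusted p under 0.05, at -0.46 and -0.52.

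Away from the starts, tiles of the member loci changed in both directions, at shares near or below those of all open tiles. Most of those that rose lay in Rarb and Rxra, the loci with the most tested tiles. Of 2755 tiles of 500 bp in the 9 loci, 566 were open, meaning a mean over all 6 libraries of at least 5 times the median tile, 0.271 CPM before TMM scaling, and 521 passed the filter. Of these, 17 tiles in 14 runs of neighbouring tiles were called higher and 9 tiles in 7 runs lower, where 4.84% of all open tiles were called higher and 1.66% lower. The uninjured mean of 7 of the 17 lay under 0.271 CPM, so those tiles were in the test only through the injured libraries, in which they had to be higher. The other 10 were open by that level in both groups, as were 8 of the 9 that fell. The median log2 change of the members' tiles was -0.06, and that of all open tiles was -0.02. Rarb held 8 higher and 3 lower of 102 tested tiles, Rxra 4 and 2 of 84, Aldh1a3 3 and 0 of 59, Rarg 2 and 2 of 72, Rara 0 and 1 of 83, and Aldh1a2 0 and 1 of 12. Adh7 had 0 of 40, Aldh1a1 0 of 15 and Crabp2 0 of 54, with 7, 1 and 10 tiles at an unadjusted p under 0.05 and 0, 0 and 1 called by DESeq2. Over all open tiles those shares were 19.8% and 8.37%.

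**Figure D3:**
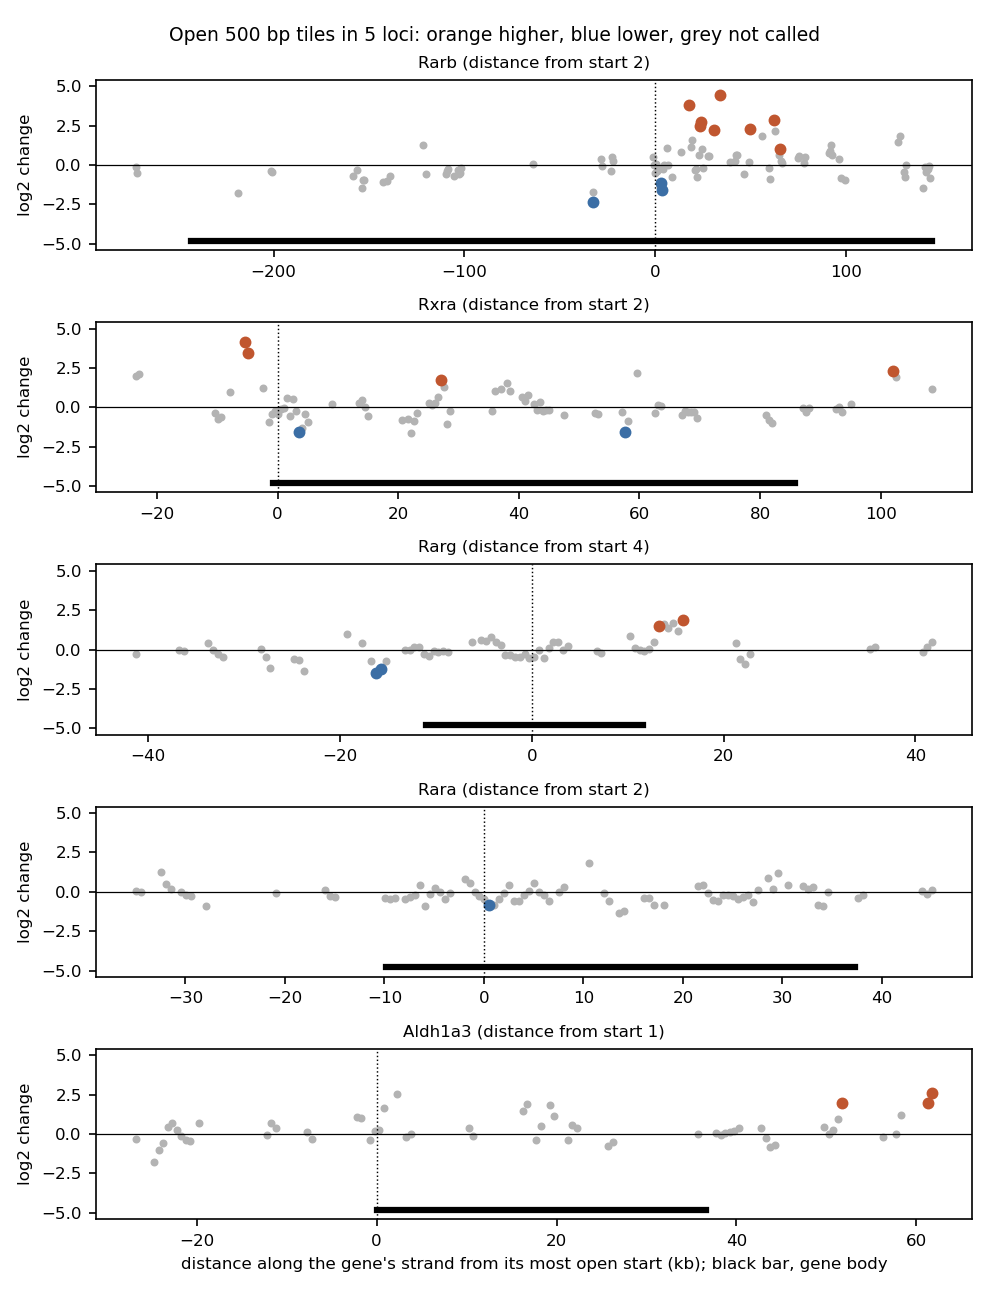
The log2 change of each open tile tested at Rarb, Rxra, Rarg, Rara and Aldh1a3 against its distance in kb from the gene's most open start, with orange for tiles called higher, blue for lower, grey for not called and a black bar for the gene body. Rarb shows 8 tiles called higher inside start 2 and 3 called lower around it.

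The Rarb tile chr14:16541501-16542000, in an intron and centred 34077 bp inside start 2, had 2 cut sites in each uninjured library and 104, 35 and 39 in I1 to I3. These are 0.129, 0.0599 and 0.0602 CPM against 2.55, 1.63 and 1.01, a log2 change of 4.46 ± 0.603 with an edgeR adjusted p of 0.00369. The tile chr14:16558001-16558500, also intronic, had 0, 6 and 6 cut sites and then 90, 52 and 49, a log2 change of 3.78 ± 0.608 with an edgeR adjusted p of 0.00639. A further intronic tile, chr14:16513501-16514000, had 3, 13 and 8 cut sites and then 102, 49 and 59, with a log2 change of 2.87 and an edgeR adjusted p of 0.00529. In these 3 tiles every injured library exceeded every uninjured one. The first and second are among the 7 that entered the test only through the injured libraries, and the third lay just over the open level before injury, so their folds and p-values describe tiles selected for being high after it. They were picked after their values were seen, because the naming rule required a mean of 2 CPM.

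By that rule the Rarb tile named was chr14:16510501-16511000, open already before injury, with 4.07, 5.09 and 4.602 CPM and then 12.1, 9.63 and 6.23. Its log2 change was 1.02 ± 0.237 with an edgeR adjusted p of 0.0281, which rose to between 0.0512 and 0.121 when U1, U2, U3, I1 or I2 was left out. The other 4 Rarb tiles that rose had log2 changes of 2.25 to 2.72. The fall named by the rule, at chr14:16572501-16573000 and 3077 bp inside start 2, went from 4.58, 3.92 and 3.19 to 2.06, 1.86 and 1.32. Its edgeR adjusted p was 0.0386 and lay between 0.0516 and 0.171 without U1, U2, I1, I2 or I3, so that leaving out U3 alone kept it. The tile chr14:16608001-16608500, 32423 bp before start 2, went from 2.90, 2.67 and 1.56 to 0.687, 0.233 and 0.414, a log2 change of -2.35.

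At Rxra the tile chr2:27671501-27672000, between genes and centred 4690 bp before start 1, had 2, 1 and 6 cut sites in U1 to U3 and 137, 27 and 56 in I1 to I3. The log2 change was 4.16 ± 0.652 with an edgeR adjusted p of 0.00589. It too entered the test only through the injured libraries, as did its neighbour. That neighbour, chr2:27672001-27672500, had 3, 2 and 6 cut sites and then 93, 38 and 20. The pair lies upstream of start windows whose values were 14.6 to 18.3 after injury and 17.4 to 21.5 before it. The Rxra tile named by the rule, chr2:27704001-27704500 in an intron, went from 0.839, 1.29 and 1.78 to 5.94, 4.51 and 2.56 CPM. Its edgeR adjusted p was 0.0228, and 0.0723 to 0.106 without U1, U2, I1 or I2.

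Rarg was called lower in a run of 2 tiles between genes, chr15:102262001-102263000, centred 4733 and 5233 bp before start 1. The outer tile had 14.3, 9.82 and 5.69 CPM in U1 to U3 and 3.81, 3.54 and 3.41 in I1 to I3, a log2 change of -1.46 ± 0.284 with an edgeR adjusted p of 0.0134. The uninjured libraries spread widely, and without U1, U2 or I2 the adjusted p was 0.0636 to 0.0833. The inner tile had 5.61, 5.78 and 4.00 and then 2.01, 2.51 and 2.02. The 2 Rarg tiles called higher lay downstream, 10339 and 12839 bp past the nearest start, the second of them within the neighbouring gene Itgb7.

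At Aldh1a3 the 3 tiles called higher all lay downstream, within Lrrk1 and the overlapping Gm10974, so they cannot be assigned to Aldh1a3 by position. The one named by the rule, chr7:66375501-66376000, had 0.581, 0.779 and 1.26 CPM and then 4.42, 4.75 and 1.24, so that I3 fell among the uninjured libraries. The edgeR adjusted p was 0.0419, and 0.133 to 0.194 without U1, U2, I1 or I2. The single Aldh1a2 tile called, 1461 bp inside its start, had 12, 15 and 20 cut sites and then 4, 2 and 6. Its means before TMM scaling were 0.633 uninjured and 0.114 injured, the latter under the open level of 0.271 CPM. It thus entered the test only through the uninjured libraries, in which it had to be higher.

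Of the 26 called tiles, 5 were called in all 6 fits that left out 1 library: the Rara tile, the 3 Rarb tiles given first and the first Rxra tile. For that Rxra tile and the first and second of those Rarb tiles this is a description alone, since they entered the test only through the injured libraries. Leaving out I3 lost 1 of the 26 and leaving out U3 lost 8, while leaving out any of the others lost 19 to 21. Calls fell over the whole genome in those fits, from 6.51% of all open tiles to 2.25% without U1, 2.52% without U2, 2.26% without I1 and 1.13% without I2, against 6.05% without U3 and 10.4% without I3.

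The motif TGANTCA, bound by AP-1 factors and searched on both strands, was in 9 of the 17 member tiles that rose (52.9%), in 0 of the 9 that fell and in 18.6% of the 521 tested. Over the genome it was in 61% of the tiles that rose, 7.12% of those that fell and 20.3% of those tested. Of the 17 member tiles that rose, 7 entered the test only through the injured libraries, among them both tiles shown here. The sequences around the motif are shown for the most changed tiles of Rarb and Rxra, on the plus strand of GRCm38, with the match in capitals.
Rarb tile, chr14:16541803-16541889: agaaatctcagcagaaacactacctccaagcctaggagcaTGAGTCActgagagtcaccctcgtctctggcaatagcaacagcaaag
Rxra tile, chr2:27671667-27671753: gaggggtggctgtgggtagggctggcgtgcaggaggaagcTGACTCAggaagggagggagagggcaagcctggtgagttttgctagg
The Rarb tiles chr14:16558001-16558500 and chr14:16513501-16514000, which rose as well, hold no such match. A match describes the letters and was not tested as a binding site.

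Because the sorted libraries hold several kinds of cell, the tests were repeated on horizontal basal cell-like clusters alone, named from Krt5, Krt14, Krt15, Trp63 and 5 other markers. These held 333, 594 and 324 uninjured and 998, 254 and 170 injured barcodes. Different clusters filled the 2 groups: uninjured cells were mainly of cluster 1, injured cells of clusters 2 and 4, and 165 of the 324 cells of U3 were of a cluster of their own, numbered 8. In the basal cell-like clusters Rara was again called lower, with log2 changes of -0.48 at start 2 and -0.55 at start 3. The edgeR adjusted p-values were 0.00376 and 0.00164. These clusters leave out unnamed clusters 3 and 5, where Rara start 2 had 34.3 and 47.8 CPM pooled, before TMM scaling. The part of this choice of cells in the Rara falls was not tested. Aldh1a3 start 1 was called higher, from 10.7, 12.4 and 11.1 to 14.0, 22.8 and 14.4 CPM, a log2 change of 0.57 with an edgeR adjusted p of 0.0477. The Aldh1a3 gene body went from 22.2, 26.7 and 22.03 to 28.8, 47.1 and 38.9, a log2 change of 0.68 ± 0.176 with an edgeR adjusted p of 0.0254. In these cells 8.83% of all start windows were called higher and 7.38% lower, and 9.87% and 7.9% of all gene bodies, so more was called throughout.

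Of 317 member tiles tested in the basal cell clusters, 37 were called higher and 34 lower (11.7% and 10.7%), against 16.5% and 9.67% of all. Rarb had 14 higher and 5 lower of 53, and Rxra 8 and 5 of 51. The Adh7 locus, with no called tile over all barcodes, had 0 higher and 7 lower of 21. These 7 tiles lay outside the Adh7 gene body, before its start or past its end. The tile chr3:138263001-138263500 among them lies within the neighbouring gene Adh1. By position these tiles cannot be assigned to Adh7. The basal cell clusters include cluster 8, mainly of U3, with 16.4 CPM before TMM scaling at Adh7 start 1. They leave out unnamed cluster 3, mainly of injured libraries, with 13.7, and unnamed cluster 5, of both groups, with 17.2. The part of this choice of cells in the falls at the Adh7 locus was not tested. The tile chr3:138208501-138209000, 9010 bp before Adh7 start 1, had 3.36, 2.90 and 2.81 CPM in U1 to U3 and 0.417, 0.723 and 0.110 in I1 to I3. The next tile had 4.51, 2.90 and 2.81 and then 0.625, 0.796 and 0.329. Every injured library was below every uninjured one, with log2 changes of -2.76 and -2.46 and edgeR adjusted p-values of 0.0012 and 0.00105. These 2 tiles were picked after their values were seen.

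Among the 13 clusters of the 4397 barcodes that were clustered, the members differed in where they were open. These values pool libraries and describe clusters made from the same cells, so they carry no test. Adh7 start 1 had 17.2, 16.4 and 13.7 CPM in clusters 5, 8 and 3, of which cluster 8 is basal cell-like. In the other basal cell-like clusters, 1, 2, 4, 12 and 13, it had 3.76, 4.67, 3.11, 0 and 3.44. Clusters 3 and 5, of 515 and 473 barcodes, could not be named from the markers and were led by genes such as Reg3g and Depp1, with Adh7 itself among the leading genes of cluster 5. Adh7 was at 0.535 in the sustentacular-like cluster and 0.26 in the olfactory sensory neuron-like one. Aldh1a1 start 2 was highest in cluster 8, at 17.8, and was 3.05, 3.57 and 1.83 in clusters 1, 2 and 4. In the sustentacular-like cluster it was 13.8 in U2 and 3.14 in U3, the 2 libraries with enough cells there. Crabp2 start 1 lay the other way, with 20.9, 22.6 and 17.2 in clusters 1, 2 and 4. In the basal cell-like clusters 12 and 13, where U2 alone had 20 or more cells, it had 24.01 and 29.28 pooled, and 14.48 and 28.92 in U2. It had 6.29 in cluster 8, which is basal cell-like as well, 8.95 in cluster 5 and 1.43 in the olfactory sensory neuron-like cluster. Cluster 8 took 165 of its 187 barcodes from U3, the library that stood apart at these 3 starts, and the part of that cluster in the U3 values was not tested. Rara start 2 was at 35.2 in cluster 1 and at 23.9 and 19.97 in clusters 2 and 4, but at 34.3 in cluster 3 and 47.8 in cluster 5. Cluster 3 took 221, 66 and 212 of its 515 barcodes from I1, I2 and I3, with 36.5, 33.7 and 33.96 CPM in I1 to I3. Cluster 1 had 32.2 to 36.5 in U1 to U3, also before TMM scaling. In cluster 5 Rara start 2 had 47.9, 42.7 and 54.0 in U1 to U3 and 41.1 and 43.3 in I1 and I3, which overlap. I2 had under 20 cells there. Rarb start 2 was at 21.1, 19.9 and 21.1 in clusters 1, 2 and 4, before such scaling.

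**Figure D4:**
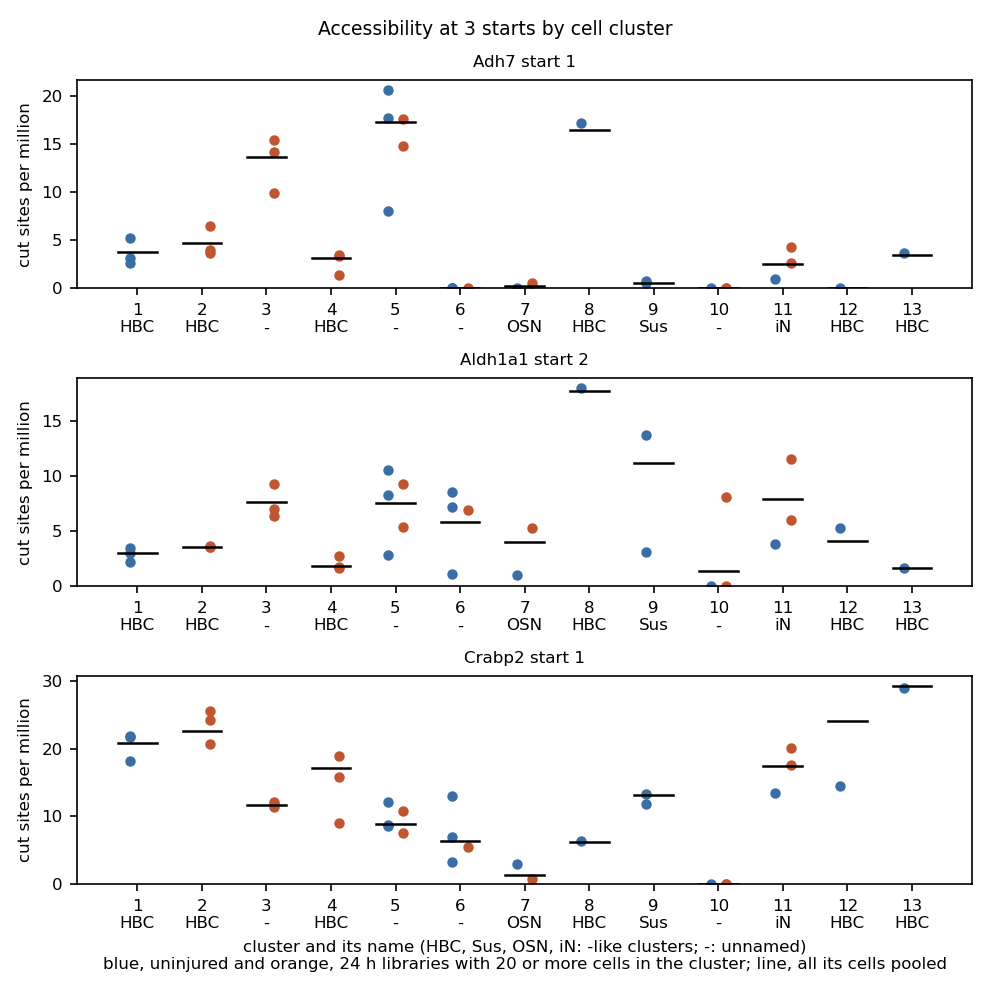
CPM, without TMM scaling, at the starts of Adh7, Aldh1a1 and Crabp2 over 13 clusters of cells, with blue points for uninjured and orange for injured libraries that have 20 or more cells in the cluster, and a line for all its cells pooled. Adh7 is highest in clusters 5, 8 and 3, Aldh1a1 in cluster 8 and Crabp2 in the small basal cell-like cluster 13, where U2 alone has 20 or more cells.

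The rest of the pathway was read from a list of 59 further genes for retinol uptake, dehydrogenases and reductases, carriers, breakdown enzymes, receptors and cofactors, and genes known to respond to retinoic acid. Of their 136 start windows tested, 4 were called higher and 2 lower, against the 2.77% and 2.98% of all windows, and the list's median log2 change was 0.02. Dhrs3, a reductase that turns retinaldehyde back to retinol, fell from 51.1, 46.0 and 43.4 to 29.6, 29.5 and 28.8 CPM at its start 1, at 144892827 of chromosome 4. Every injured library lay far below the uninjured ones, with a log2 change of -0.67 ± 0.0816 and an edgeR adjusted p of 0.00104, and 0.000392 to 0.0143 when each library was left out. Ppard, a nuclear receptor that can bind retinoic acid, fell from 24.7, 22.8 and 22.4 to 12.9, 14.9 and 17.3, with an edgeR adjusted p of 0.00942. Without U1 or I2 that p was 0.053 and 0.0538.

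Dhrs9, a dehydrogenase able to oxidise retinol, rose from 7.43, 8.92 and 12.3 to 20.97, 20.4 and 14.3 CPM at its start 1, a log2 change of 0.94 ± 0.190 with an edgeR adjusted p of 0.0151. Without U1, U2, I1 or I2 the p was 0.07 to 0.0833. Scaling by 10 kb bins, with the median of all windows at -0.43, gave Dhrs9 a log2 change of 0.45 and an edgeR adjusted p of 0.0748. Stra6, the membrane receptor for retinol uptake, rose at start 4 from 0.805, 2.08 and 3.52 to 7.48, 8.86 and 4.91, with adjusted p = 0.0349 and 0.0757 to 0.138 without U1, U2, I1 or I2. In basal cell-like clusters alone it was not called (log2 change 1.69, adjusted p = 0.168). No other start of Stra6 was called. Its gene body had 29.7, 25.6 and 43.1 CPM uninjured and 36.3, 51.2 and 42.7 injured, with overlap (edgeR adjusted p = 0.205). Tgm2, a transglutaminase gene long used as a retinoic acid target, rose at start 2 from 0.681, 0.724 and 2.65 to 5.87, 5.99 and 3.50, with adjusted p = 0.0399 and 0.114 to 0.14 without the same libraries. The more open start 1 of Tgm2 had means of 8.74 and 9.16 CPM, a log2 change of 0.05. Start 2 of Tgm2 was not called in basal cell-like clusters (log2 change 1.72, adjusted p = 0.223). Dhrs7 rose at start 1 from 14.8, 15.9 and 16.9 to 20.4, 19.8 and 22.1, with adjusted p = 0.0462, and missed the threshold whichever library was left out. Under scaling by 10 kb bins it was at -0.08, where the median of all windows was at -0.43, so this change of sign came with a shift of the windows as a whole. None of the 3 genes that break down retinoic acid, Cyp26a1, Cyp26b1 and Cyp26c1, had a called window among their 5. In the gene body test 3 of the 59 were called higher and 0 lower, among them Dhrs9 and Bco2 with log2 changes of 0.89 and 0.51, against 3.58% and 2.78% of all gene bodies. Leaving out U1, U2, I1 or I2 left 0, 0, 1 and 0 called gene bodies among all genes, so those fits say nothing of single genes. Without U3, where 5.98% of all gene bodies were called, Bco2 missed the threshold (edgeR adjusted p = 0.0675) and Dhrs9 passed it (0.00914).

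**Figure D5:**
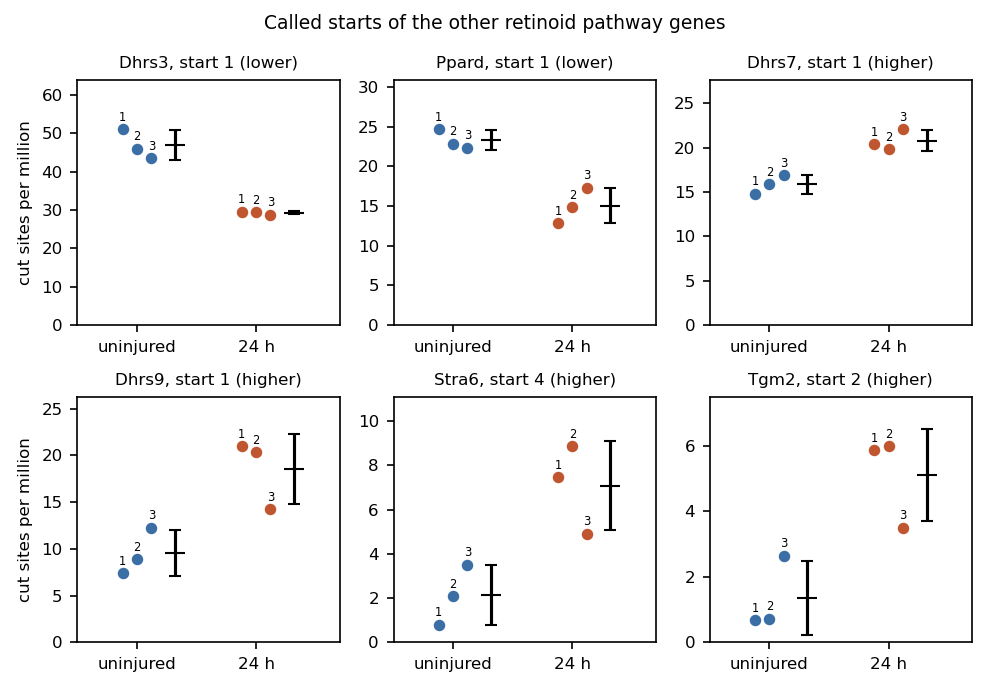
CPM of cut sites in each library for the start windows of the wider retinoid list that were called, with blue points for uninjured and orange for injured libraries beside mean and SD. Dhrs3 and Ppard are lower in all 3 injured libraries, and Dhrs9, Stra6, Tgm2 and Dhrs7 higher; scaling by 10 kb bins, which lowers the windows as a whole, puts Dhrs7 at -0.08.

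The falls depend in number on how libraries are scaled. The median log2 change of all start windows was 0.035 here, -0.43 when 10 kb bins set the TMM factors, and -0.17 when libraries were scaled by total cut sites. With bins the members' windows were called 0 higher and 6 lower of 30, where 2.02% of all windows were called higher and 31.9% lower. With totals they were 0 and 5, where the shares of all were 2.97% and 19.2%. The members' tiles were called 12 higher and 32 lower of 521 with bins (3.33% and 5.03% of all open tiles) and 17 and 16 with totals (4.48% and 2.48%). Rara starts 2 and 3 were lower under both, with log2 changes of -0.93 and -0.99 under bins and -0.67 and -0.73 under totals. The positive log2 changes at Adh7 start 1, Aldh1a1 start 1, Aldh1a3 starts 1, 2 and 5, Crabp2 starts 1 and 2, Rara start 5, Rarb start 2, Rarg start 6 and Rxra start 5 turned negative with bins, under which the median of all windows was also lower.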

How the data were processed

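Fragment lists and peak matrices of the 6 libraries were deposited by the authors; the submitters' processing notes name mm10 and Cell Ranger 2.0.0, while the headers of the matrices name software version 1.2.0. Per the file headers, the deposited values used are counts: the read count of each fragment, of which only the position was used here, both ends being cut sites. The matrices were not used for tests. No fragment passed the end of a GRCm38 chromosome on the 21 chromosomes compared. Barcodes needed 2000 fragments. Open tiles had at least 5 times the mean of the median tile with a cut site. Cut sites were summed per library, so that libraries, 3 per group, are the replicates. Each p-value sets the group difference against variation between libraries, estimated with information shared over all features of a table. Each listed fragment was counted once, whatever its read count.

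Tests used edgeR 4.0.16 (quasi-likelihood, robust, TMM, filterByExpr, group as the only term) with Benjamini-Hochberg adjustment over each whole table and a threshold of 0.05, checked on simulated data; DESeq2 1.42.0 was an alternative. A standard error is the log2 change divided by the square root of F. Clusters came from TF-IDF, truncated SVD and Leiden (leidenalg 0.10.2, igraph 0.11.9), for barcodes with at least 20% of cut sites in open tiles; doublets were not called. Gene models were GENCODE M21. Named tiles were, per locus and direction, the called one with the largest change and at least 2 CPM; of the pathway list, the called genes were named, except 1 that is not reported here. The members, lists, tests and alternatives were chosen with earlier results of these data known. Same-numbered libraries share an age in the labels. Their deviations from the group means correlated at 0.0798, 0.195 and 0.252, and those of libraries with unlike numbers at -0.266 to 0.142. The main fits used no block, and a fit with replicate number as a block was an alternative. Alternatives covered scaling, filters, window size, tile threshold, barcode minimum, leaving out each library and cell subsets; leaving out repeated copies of cells was added after seeing the data.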

Additional observations from a re-analysis of the deposited data

How the results depend on the processing

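Member start windows called (0 higher, 2 lower) were 1 higher in basal cell-like clusters, and 6 lower with 10 kb bin scaling, 5 with total cut sites, 1 with 500 bp windows and 0 with only the 5′-most start, a fit that does not hold Rara starts 2 and 3. Member tiles (17 higher, 9 lower) were 37 higher and 34 lower in basal cell-like clusters, and lower tiles numbered 32 with bins, 16 with totals and 16 with the replicate block (2.75% of all tiles). Member gene bodies (0) were 3 with bins and 1 in basal cell-like clusters. Pathway windows (6) were 18 with the replicate block, 12 with DESeq2, 31 with bins, 22 with totals and 13 in basal cell-like clusters, where these fits called 11.6%, 12.4%, 34%, 22.2% and 16.2% of all windows; pathway gene bodies (3) were 6, 17 and 7 with DESeq2, bins and basal cell-like clusters, which called 14.2%, 37.1% and 17.8% of all gene bodies. Dhrs7 start 1 had a log2 change of -0.0789 with bins (edgeR adjusted p = 0.794), under which the median of all windows was also lower. The causes of the other shifts were not tested. Leaving out 1 library gave 4 to 33 higher and 1 to 15 lower tiles, 1 to 12 pathway windows, 0 to 5 pathway gene bodies (1.13% to 10.4% of all tiles, 1.15% to 7.83% of all windows and 0% to 15.1% of all gene bodies), and 2 lower and 0 higher member windows each time. Whether replicate numbers pair the libraries was left undecided by the check above. U1 and I1 correlated at only 0.0798, but all 3 same-numbered values were positive, and 5 of the 6 libraries correlated best with their own number, I1 being the exception. With the replicate block, the variation between libraries that edgeR estimates (biological coefficient of variation) fell from 0.2203 to 0.1685 over windows. It fell from 0.3671 to 0.3158 over tiles and from 0.1764 to 0.1381 over gene bodies. The block called 11.6% of all windows, against 5.76% without it, and gave Rarg start 4 an edgeR adjusted p of 0.0404. Few cut sites before injury limit the tiles that rose most: standard errors of called tiles reached 0.686.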
